A study of Mus musculus with 58 samples.

Results

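Chemokines are the signalling proteins that guide leukocytes through tissues, and 54 genes for chemokines and their receptors were followed here in the lung, liver and forestomach of mice given the polycyclic aromatic hydrocarbon indeno(1,2,3-cd)pyrene (IP). The members were taken by name: every gene whose symbol began with Ccl, Cxcl, Ccr or Cxcr followed by a number, together with Xcl1, Cx3cl1 and Cx3cr1. They comprised 36 ligand and 18 receptor genes among the 20018 named genes on the array. The mice were adult males of the Muta™Mouse strain, which carries a bacterial lacZ reporter for mutation assays in every cell, and were about 13 weeks old. They received IP in olive oil by gavage every day for 28 days at 12.5, 25 or 50 mg/kg-bw/day, or olive oil alone (vehicle), and tissues were taken 72 h after the final dose. There were 5 mice in each group, except that 4 vehicle mice were measured in liver and in forestomach. RNA was extracted from sections of whole tissue, so each value is an average over all cell types present. Sample RNA was labelled with Cy5 and hybridised together with a Cy3-labelled reference, a pool of RNA from mouse cell lines, on 58 arrays from 20 mice.

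Chemokine ligands are grouped by the spacing of their first cysteines into CC, CXC, XC and CX3C families, and they act on receptors that couple to G proteins on the surface of leukocytes. Inflammatory chemokines are switched on by cytokines and microbial products and recruit monocytes, neutrophils, eosinophils or effector T cells, whereas homeostatic chemokines are made continuously and place lymphocytes and dendritic cells within lymphoid and barrier tissue. In the lung, liver and stomach the resident macrophages, epithelium and vessel walls are all known sources of ligands, and the receptors are carried mostly by the leukocytes that pass through or reside there.

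Each level below is a log2(Cy5/Cy3) ratio: the log2 of the mouse sample over the reference for that probe. It is therefore compared for 1 gene between tissues or doses, never between genes. Between 37.6% and 90.7% of probes were well above background on an array, and 12 arrays had a median Cy5 signal over 0.5 log2 units above the median of their tissue (4 in lung, 5 in liver and 3 in forestomach). In lung these were mice 3, 8, 13 and 18, which is 1 mouse of each dose on the same slide. In liver they were mouse 9 at 12.5, mice 13 and 15 at 25 and mice 16 and 20 at 50 mg/kg-bw/day, with none among the vehicle mice. Lung and forestomach arrays shared 5 slides, whereas the liver arrays were on 3 other slides read with a later version of the scanner software. A tissue difference that involves liver therefore cannot be told apart from a difference between slides. With 2 exceptions in liver, each dose also occupied its own column of the slides, so dose and array column cannot be told apart. The lung markers (surfactant and club cell genes) averaged 5.84 to 6.26 in vehicle lung, the liver markers 8.01 to 9.05 in vehicle liver, and all 6 squamous markers were above background in forestomach, where they averaged 2.73 to 3.24. Forestomach also held 6 glandular stomach markers at a mean of 0.80 to 6.34 in the vehicle mice, and vehicle lung held heart muscle markers at 1.74 to 4.56 and fat cell markers at 0.76 to 3.34.

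More of the family was detected in lung than in the other tissues, as was true of all probes, of which 53.0% to 85.4% were above background on a vehicle lung array, 37.6% to 41.7% in liver and 43.0% to 52.4% in forestomach. On every vehicle array, 40 of the 54 members were above background in lung, 21 in liver and 23 in forestomach, whereas 7, 26 and 17, respectively, were above background on none of them. The ligand genes Ccl1, Ccl20 and Cxcl3 were not above background on any of the 58 arrays. In vehicle mice, with a gene called when the limma adjusted p was at most 0.05 and the fold change at least 1.5, 26 members were higher and 10 lower in lung than in liver, where 15.7% of all probes were called higher and 11.1% lower. Against forestomach, 21 members were higher and 2 lower in lung, beside 10.6% and 8.9% of all probes. Between forestomach and liver the calls were balanced, with 11 members higher and 11 lower in forestomach, beside 12.8% and 9.89% of all probes. With the arrays only centred on the median, these splits became 28 higher and 2 lower for lung against liver and 15 higher and 6 lower for forestomach against liver. The shares of all probes called were not taken with that centring, so these splits have none beside them. The medians of all probes then lay at 0.003 and 0.06. Under the normalization used throughout, the median member lay 0.47 log2 units higher in lung than in liver and 0.39 higher than in forestomach. That normalization, within each array, sets the medians of all probes near 0, and they lay at -0.01 for both. In tissue RNA, fewer cells of a type and less RNA per cell cannot be told apart.

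**Figure D1:**
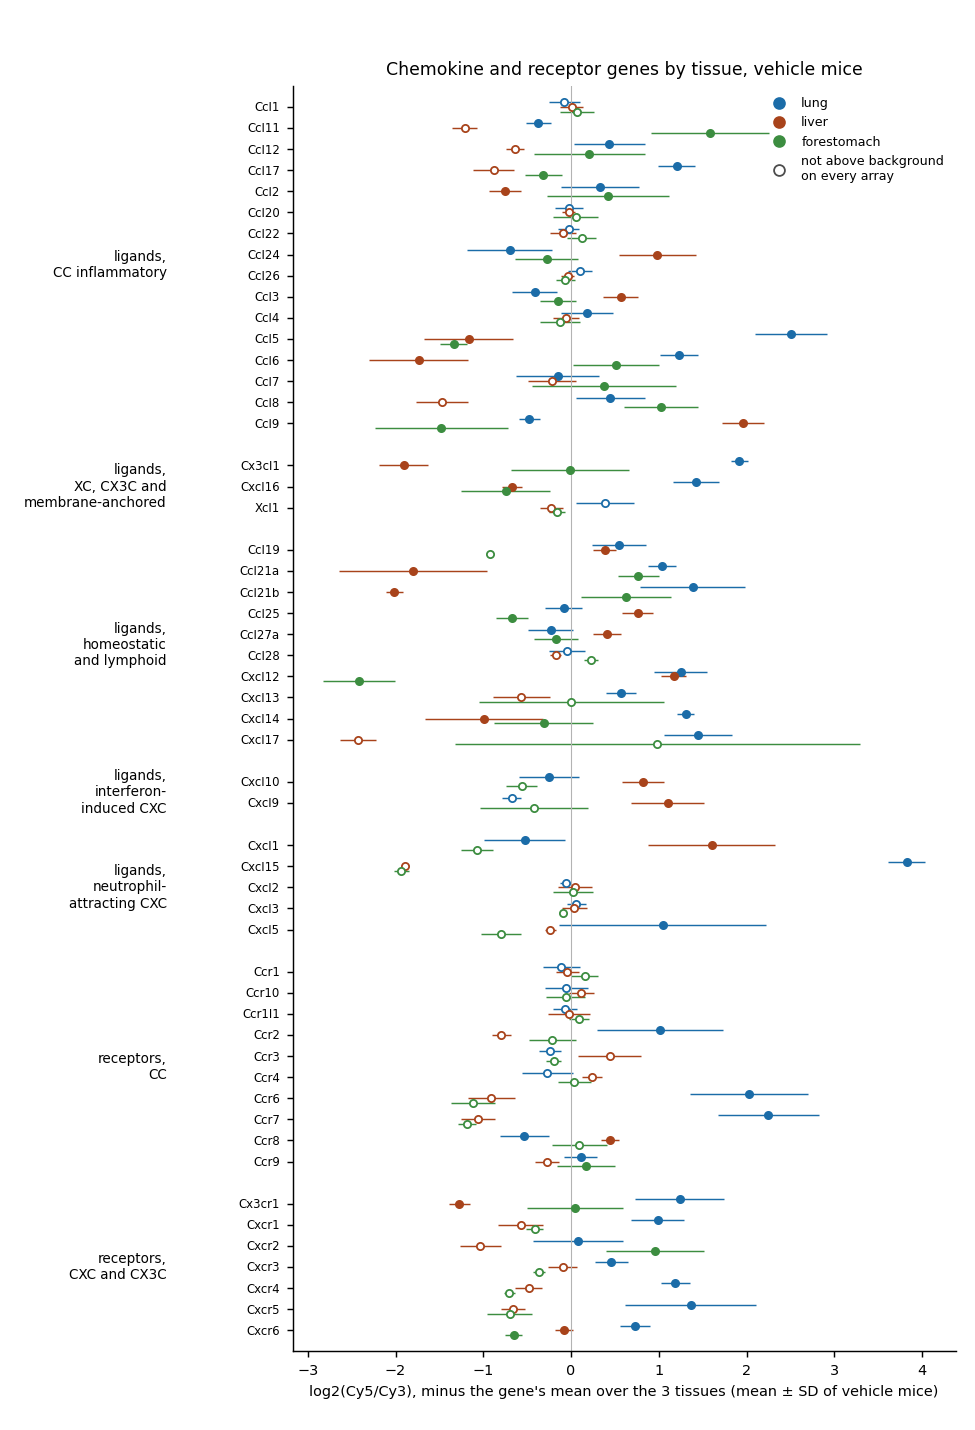
Mean log2(Cy5/Cy3) of each gene reported here in vehicle mice (± SD, 5 lung, 4 liver and 4 forestomach arrays), drawn relative to the gene's own mean over the 3 tissues and grouped by role. Open points mark a tissue in which at least 1 array was not above background. The lung points lie furthest to the right for Cxcl15, Ccl5 and most CXC and CX3C receptors, the liver points for Ccl9 and Cxcl1, and the forestomach point for Ccl11.

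Among the receptors, 8 of 18 were higher in lung than in both other tissues, as were 7.73% of all probes: Ccr2, Ccr6, Ccr7, Cxcr1, Cxcr4, Cxcr5, Cxcr6 and Cx3cr1. Against liver alone, 6 of the 7 CXC and CX3C receptors were higher in lung and none was lower, beside 15.7% and 11.1% of all probes. With the log ratio that the scanner software gave, Ccr2 and Cx3cr1 did not pass between lung and forestomach. Ccr7, which draws dendritic cells and naive T cells to lymphatic vessels, was at 3.44, 2.10, 2.80, 2.82 and 3.53 in the 5 vehicle lungs. In liver it was at -0.44, -0.62, -0.19 and -0.26 and in forestomach at -0.64, -0.49, -0.41 and -0.44, in each case above background in only 1 mouse. The groups did not overlap, and against this mostly undetected signal the lung level was higher by 3.31 (SE 0.28, adjusted p = 7.18e-15) than in liver and by 3.43 (SE 0.28, adjusted p = 5.54e-15) than in forestomach. Ccr6, a receptor of B cells and of some T cells and dendritic cells, was at 3.64, 2.92, 1.76, 2.61 and 2.80 in lung and was above background in no vehicle liver or forestomach. Its lung signal was thereby at least 7.47-fold that of liver (adjusted p = 1.26e-11) and at least 8.68-fold that of forestomach (adjusted p = 3.32e-12). These bounds set the mean Cy5 level of the higher tissue against the lowest Cy5 level that counts as above background in the lower one, or give the fold of the log ratios where that is smaller, and without dye swaps they are open to dye bias. Cxcr5, which leads B cells into follicles, was likewise above background in all 5 lungs (2.03 ± 0.74, SD, n = 5) and in no vehicle liver or forestomach. Apart from the 3 members that differed most at each end of a tissue pair, the members described in vehicle mice were chosen after their values were seen.

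The log ratios of the remaining receptors of this group differed less, in part against undetected signal. Cxcr4, the receptor of Cxcl12, was at 0.79 ± 0.16 in lung (SD, n = 5), at -0.89 ± 0.16 in liver (n = 4) and at -1.11 ± 0.06 in forestomach (n = 4). It was above background in no vehicle liver and in 2 of 4 vehicle forestomachs. Cx3cr1, the fractalkine receptor of monocytes and NK cells, was graded, at 3.07 ± 0.50 in lung, 1.87 ± 0.55 in forestomach and 0.55 ± 0.12 in liver, and all 3 differences passed the test. The difference between forestomach and liver did not pass with Cy5 alone (1.05) or with the scanner log ratio (1.38). A second Cx3cr1 probe was called for lung minus liver (0.87), but not for lung minus forestomach (0.54) or forestomach minus liver (0.33). Ccr2, the receptor of inflammatory monocytes, was at 1.78 ± 0.72 in lung and was above background in no vehicle liver and 1 of 4 forestomachs. Cxcr2, which neutrophils use to follow CXC ligands, was the exception to the order of tissues, since its mean was highest in forestomach at 2.11 ± 0.56, against 1.23 ± 0.51 in lung and 0.12 ± 0.24 in liver. Lung and forestomach did not pass the test against each other for Cxcr2, and each was higher than liver, although lung did not pass against liver with the scanner log ratio. In liver Cxcr2 was above background in 1 of 4 vehicle mice. Ccr3, the eotaxin receptor of eosinophils, was higher in liver than in lung (lung minus liver -0.67, adjusted p = 0.00128) and in forestomach (forestomach minus liver -0.64, adjusted p = 0.00482), at low levels and above background in only some vehicle livers. Neither Ccr3 call held with Cy5 alone (-0.22 and -0.56) or with the arrays only centred on the median (-0.53 and -0.42). Ccr8 was lower in lung than in both other tissues, with differences of -0.97 from liver and -0.63 from forestomach, but the first of these turned to +0.07 with the arrays only centred on the median, and the second did not pass with that centring (-0.18), with Cy5 alone or with the scanner log ratio.

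The leukocyte markers differed between the tissues alongside the receptors. The mean of the 8 B cell markers was 0.07 to 1.12 in vehicle lungs, -0.96 to -0.70 in livers and -1.0 to -0.68 in forestomachs. Of these 8 genes 5 were called higher in lung than in liver and none lower, beside 15.7% and 11.1% of all probes. The neutrophil markers averaged 1.61 to 2.09, -0.01 to 0.15 and 0.38 to 0.53, respectively. The macrophage and monocyte markers measured were Adgre1, Csf1r, Marco, Cd163, Mrc1, Clec4f and Vsig4, since Cd68 and Ly6c2 were not matched. The mean of these 7 genes was instead highest in liver, at 2.46 to 3.09, against 1.31 to 1.61 in lung and 0.18 to 1.14 in forestomach. On every vehicle array 6 of the 7 were above background in liver, 4 in lung and 5 in forestomach, and the order holds for this list only. The part of these cell types in the receptor differences was not tested.

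Among the 36 ligands, 7 were higher in lung than in both other tissues, beside the 7.73% of all probes, and Cxcl15 stood furthest apart. Cxcl15 (lungkine) is a neutrophil-attracting ligand made by the epithelium of the airways. It was at 5.63, 5.71, 5.78, 5.89 and 6.18 in the vehicle lungs, at 0.16, 0.14, 0.13 and 0.07 in the livers and at 0.08, 0.06, -0.01 and 0.19 in the forestomachs, and no liver or forestomach value was above background. By the log ratios the lung signal was 52.4-fold that of liver (log2 difference 5.71, SE 0.11, adjusted p = 1.86e-41). It was 54.1-fold that of forestomach (5.76, SE 0.11, adjusted p = 1.16e-41). Over the alternatives tried these log2 differences lay between 4.84 and 7.62 and between 4.87 and 7.69, respectively. Cx3cl1 (fractalkine), a ligand anchored in the membrane of endothelium and epithelium, was at -0.28, -0.37, -0.35, -0.40 and -0.16 in lung, at -3.91, -4.54, -4.09 and -4.01 in liver and at -3.25, -1.91, -1.91 and -1.90 in forestomach. The 3 tissues did not overlap, and lung exceeded liver 14.2-fold (log2 difference 3.82, SE 0.29, adjusted p = 1.69e-16). The forestomach value of -3.25 was in mouse 1, whose glandular stomach markers averaged 0.80, against 6.25 to 6.34 in the other vehicle forestomachs. The Cx3cl1 receptor Cx3cr1 showed the same order of means, as given above.

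Ccl5 (RANTES), a product of T cells and NK cells, was at -0.29, -1.04, -0.01, -0.07 and -0.38 in lung. It was at -4.17, -4.48, -3.30 and -4.18 in liver and at -4.39, -4.01, -4.17 and -4.25 in forestomach, so that liver and forestomach overlapped while lung stood apart from both. The lung level was 14.4-fold that of forestomach (log2 difference 3.85, SE 0.28, adjusted p = 7.28e-17) and exceeded that of liver by 3.67 on the log2 scale (SE 0.28, adjusted p = 1.39e-16). Cxcl14 and Cxcl16, the latter a membrane-anchored ligand of Cxcr6, were at 3.54 ± 0.10 and 3.31 ± 0.26 in lung, against 1.24 ± 0.68 and 1.21 ± 0.11 in liver and 1.92 ± 0.56 and 1.15 ± 0.51 in forestomach. Ccl17, a ligand of Ccr4, and Cxcl5, a neutrophil attractant of alveolar epithelium, completed the group, and Cxcl5 spread widely between vehicle lungs (-1.63 ± 1.18).

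By the probe used for each gene, homeostatic ligands of lymphatic vessels and stroma were shared by lung and forestomach or by lung and liver. Ccl21a, which is made by lymphatic endothelium and binds Ccr7, was at 4.25, 4.39, 4.50, 4.43 and 4.69 in lung and at 3.89, 4.41, 4.10 and 4.33 in forestomach. In liver it was lower and more scattered, at 1.84, 1.46, 0.57 and 2.60, and forestomach exceeded liver 5.93-fold (log2 difference 2.57, SE 0.35, adjusted p = 1.48e-08). Taken from the scanner log ratio, the Ccl21a differences were 0.57 for forestomach (adjusted p = 0.532) and 0.61 for lung over liver, and neither passed. Ccl21b followed at 3.45, 3.36, 2.73, 3.97 and 4.28 in lung, 2.42, 2.38, 2.94 and 3.47 in forestomach and 0.15, 0.08, 0.11 and 0.29 in liver. Forestomach exceeded liver 6.26-fold for Ccl21b (log2 difference 2.65, SE 0.37, adjusted p = 4.21e-08), without overlap. The Ccl21 genes are near-identical copies whose probes carry accessions of one another, so the copies cannot be told apart here.

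Cxcl12, a stromal ligand that retains cells carrying Cxcr4, was at 1.29, 0.54, 0.99, 1.12 and 0.72 in lung and at 0.90, 0.64, 0.89 and 0.98 in liver, whereas forestomach was at -3.19, -2.93, -2.24 and -2.58. Forestomach was thus 12.0-fold below liver (log2 difference -3.59, SE 0.28, adjusted p = 5.1e-16) and 12.7-fold below lung (lung minus forestomach 3.67, SE 0.26, adjusted p = 6.45e-17). A second probe for Cxcl12 disagreed on lung, with called differences of -0.87 for lung minus forestomach and -1.92 for lung minus liver. It also called forestomach below liver, by a smaller difference (-1.05). Cxcl12 is therefore uncertain, above all in lung. By the probe used, Ccl19, another Ccr7 ligand, was also lower in forestomach, at 0.15 ± 0.03 with no value above background, against 1.62 ± 0.31 in lung and 1.45 ± 0.13 in liver. That probe was above background on 43 of the 58 arrays, and the other 2 Ccl19 probes on 56 and 53. Those 2 were not called, at 0.26 and 0.14 for lung minus forestomach and -0.44 each for forestomach minus liver. The forestomach level of Ccl19 is therefore uncertain.

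In liver, 7 of the 36 ligands were higher than in both other tissues, as were 7.37% of all probes: Ccl3, Ccl9, Ccl24, Ccl25, Cxcl1, Cxcl9 and Cxcl10. Because these include inducible ligands that were high together, the 250 bases before the start of 3 of them are shown with that of the lung ligand Cxcl15, from RefSeq on the GRCm38.p6 assembly, and each is read 5′ to 3′ on the gene's strand. Capitals mark the TATA box TATAAA and the NF-kB type motif (GGGA and CC with any 4 bases between them) on either strand, with overlapping matches run together. Cxcl15 lies on the plus strand at chr5:90794284-90794533, Cxcl1 on the plus strand at chr5:90890995-90891244, Cxcl9 on the minus strand at chr5:92328080-92328329 and Ccl9 on the minus strand at chr11:83578637-83578886.
Cxcl15: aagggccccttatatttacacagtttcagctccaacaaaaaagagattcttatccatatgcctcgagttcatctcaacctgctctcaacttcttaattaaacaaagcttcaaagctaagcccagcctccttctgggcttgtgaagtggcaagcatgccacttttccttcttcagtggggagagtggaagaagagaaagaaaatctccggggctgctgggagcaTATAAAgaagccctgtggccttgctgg
Cxcl1: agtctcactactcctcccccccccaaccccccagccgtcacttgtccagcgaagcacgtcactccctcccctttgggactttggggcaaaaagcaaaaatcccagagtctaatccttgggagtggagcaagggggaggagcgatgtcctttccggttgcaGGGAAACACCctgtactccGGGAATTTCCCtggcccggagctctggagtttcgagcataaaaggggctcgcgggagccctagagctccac
Cxcl9: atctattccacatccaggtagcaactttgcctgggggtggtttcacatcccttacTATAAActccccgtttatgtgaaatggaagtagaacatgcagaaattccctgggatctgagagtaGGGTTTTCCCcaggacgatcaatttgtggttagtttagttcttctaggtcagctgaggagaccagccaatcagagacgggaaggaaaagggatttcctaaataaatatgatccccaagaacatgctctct
Ccl9: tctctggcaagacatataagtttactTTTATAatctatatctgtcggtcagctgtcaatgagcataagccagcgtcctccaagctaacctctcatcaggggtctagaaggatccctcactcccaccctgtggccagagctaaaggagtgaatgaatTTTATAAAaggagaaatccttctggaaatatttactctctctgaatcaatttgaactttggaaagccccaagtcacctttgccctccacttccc
The Cxcl15 window holds 1 TATA box, 27 bases before the start, and no NF-kB type motif. The Cxcl1 window holds 3 NF-kB type matches, 90, 71 and 70 bases before the start, of which the last 2 overlap, and the Cxcl9 window 1 at 130 bases and a TATA box at 195. The Ccl9 window holds TATA boxes at 224, 94 and 92 bases, on one or the other strand. Of the 54 members 40 had a RefSeq promoter, in 44 windows. The NF-kB type motif was in 18 of these 44 windows and in 17.6% of all 32851 promoters, and the TATA box in 11 of 44 and in 12.4% of all. The core GCGTG, to which the aryl hydrocarbon receptor binds, was in 15 of 44 windows and in 28.2% of all promoters, and the interferon response motif (GAAA repeated after any 2 bases) in 3 of 44 and in 2.98% of all. A match describes letters in the window and not a bound site.

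Ccl9 (MIP-1 gamma), a CC ligand of myeloid cells that binds Ccr1, was at 2.49, 2.19, 2.60 and 2.75 in liver. It was at 0.07, -0.13, 0.17, 0.13 and 0.14 in lung and at 0.16, -1.15, -1.13 and -1.59 in forestomach, and the liver values overlapped with neither. Liver exceeded lung 5.39-fold (lung minus liver -2.43, SE 0.25, adjusted p = 8.39e-12) and forestomach 10.8-fold (forestomach minus liver -3.43, SE 0.27, adjusted p = 5.78e-16). As with Cx3cl1, mouse 1 stood apart in forestomach, with Ccl9 at 0.16 and the others between -1.59 and -1.13. Its glandular stomach markers averaged 0.80, against 6.25 to 6.34 in the other vehicle forestomachs. Over the alternatives tried, the forestomach minus liver difference of Ccl9 lay between -3.66 and -2.35. The part of glandular stomach in the Ccl9 level was not tested. Cxcl1 (KC), a neutrophil attractant acting through Cxcr2, was at -1.94, -0.58, -1.0 and -2.07 in liver and at -3.59, -4.08, -2.80, -3.65 and -3.50 in lung. In forestomach, Cxcl1 was at -3.81, -4.13, -4.12 and -4.23, never above background. Liver thus exceeded lung 4.37-fold for Cxcl1 (lung minus liver -2.13, SE 0.31, adjusted p = 7.47e-08) and forestomach at least 4.68-fold (adjusted p = 1.17e-09). With the arrays only centred on the median, the Cxcl1 difference between lung and liver was -0.93 and did not pass the test (adjusted p = 0.102).

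Cxcl9 and Cxcl10 are interferon-induced ligands of Cxcr3. Cxcl9 was at 1.52, 1.92, 2.53 and 1.98 in liver, where every value was above background. In lung it was at 0.19, 0.35, 0.08, 0.15 and 0.27 and in forestomach at -0.21, 0.41, 1.28 and 0.38, with 1 value above background in each tissue. Against this mostly undetected lung signal the liver level was higher (lung minus liver -1.78, SE 0.32, adjusted p = 7.2e-06), and a second probe also called it lower in lung. Cxcl10 was higher in liver than in lung (lung minus liver -1.07) and than in forestomach (forestomach minus liver -1.38), but the sign against lung turned to +0.08 with the arrays only centred on the median, and the forestomach difference then did not pass. The same centring turned the signs of Ccl3 and Ccl25 against lung, to 0.13 and 0.33, so the liver excess of these 3 ligands over lung depends on the scaling. Ccl24 passed against neither lung (-0.44) nor forestomach (-0.68) with that centring, and Ccl3 (-0.22) and Ccl25 (-0.88) did not pass against forestomach. Ccl3 also did not pass with Cy5 alone against lung (-0.46) or forestomach (-0.29), or with the scanner log ratio against lung (-0.57). Apart from median centring, none of the members called between lung and liver changed sign under the other 4 scalings tried.

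Forestomach had 1 ligand higher than both other tissues, where 4.92% of all probes were, Ccl11 (eotaxin), which attracts eosinophils through Ccr3. Ccl11 was at 3.49, 2.87, 1.90 and 2.45 in forestomach, at 0.67, 0.95, 0.60, 0.61 and 0.72 in lung and at -0.16, -0.31, 0.02 and -0.05 in liver, where it was not above background. No forestomach value overlapped, and forestomach exceeded lung 3.90-fold (lung minus forestomach -1.96, SE 0.22, adjusted p = 7.2e-11) and liver at least 4.75-fold (adjusted p = 2.11e-15). The monocyte attractants Ccl2, Ccl6, Ccl8 and Ccl12 were higher in both forestomach and lung than in liver. Of these Ccl6 was at 5.27 ± 0.49 in forestomach, 5.99 ± 0.22 in lung and 3.02 ± 0.56 in liver. Ccl8 and Ccl12 were above background in no vehicle liver. With Cy5 alone, Ccl12 did not pass for forestomach minus liver (0.62) or lung minus liver (0.68).

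**Figure D2:**
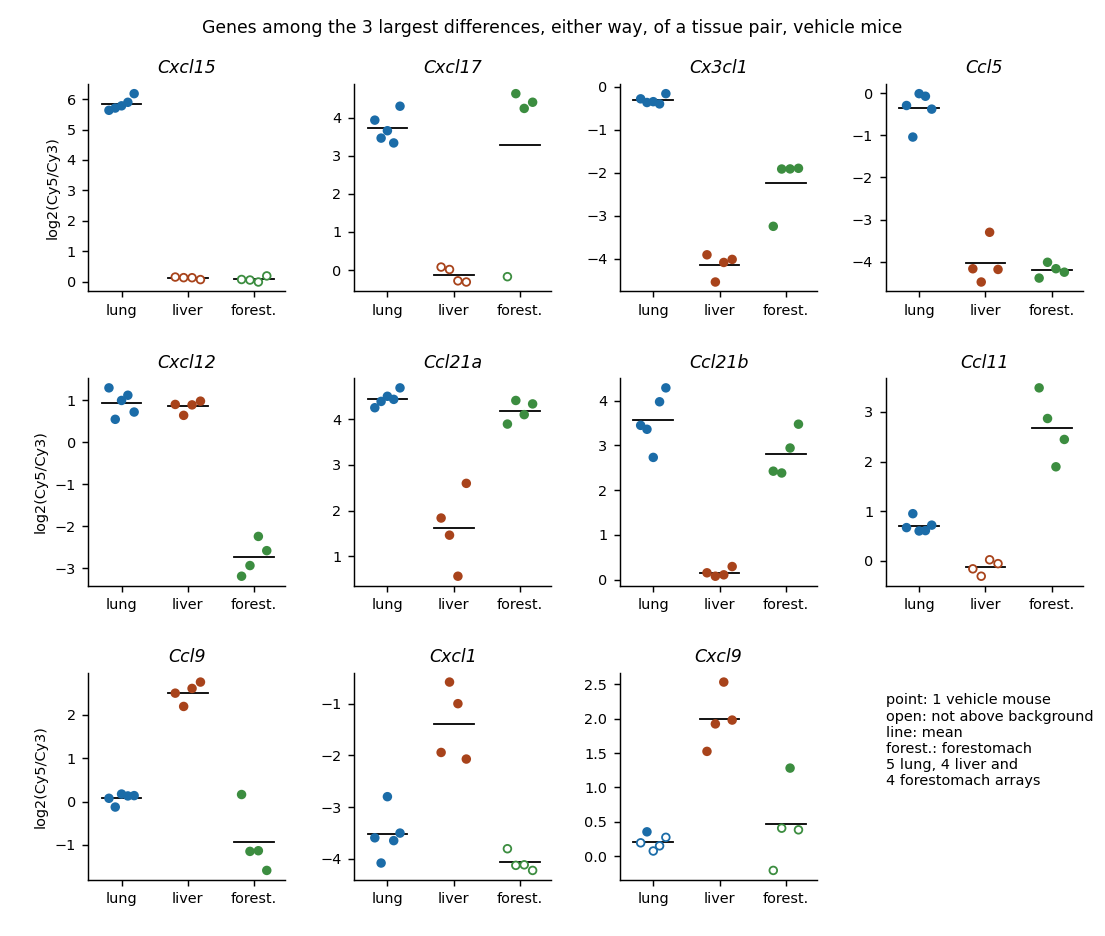
Log2(Cy5/Cy3) of the 11 members that were among the 3 largest differences in either direction for a pair of tissues, 1 point for each vehicle mouse (open: not above background) and a line at the mean. Lung stands apart for Cxcl15, Cx3cl1 and Ccl5, liver for Ccl9, Cxcl1 and Cxcl9 and forestomach for Ccl11, while forestomach Cxcl17 splits into 1 mouse near 0 and 3 mice above 4.

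Cxcl17, a ligand of mucosal epithelium, was at 3.94, 3.47, 3.66, 3.34 and 4.31 in lung and at 0.08, 0.01, -0.28 and -0.32 in liver, where it was not above background. By the log ratios lung exceeded liver 14.7-fold (log2 difference 3.87, SE 0.89, adjusted p = 0.000259), and over the alternatives tried the difference lay between 3.37 and 5.66. In vehicle forestomach it was at -0.18 in mouse 1, below the detection level, and at 4.64, 4.25 and 4.41 in the other 3. Over all doses Cxcl17 was above background in 10 of 19 forestomachs, at 2.67 to 5.08, and in these the 6 glandular stomach markers averaged 4.92 to 6.46. In the other 9, where Cxcl17 lay between -0.18 and 0.36, those markers averaged 0.80 to 2.66. The high mice were spread over the doses, with 3 of 4 vehicle mice and 2 of 5, 2 of 5 and 3 of 5 at the rising doses. Without these forestomach arrays 1 vehicle mouse was left, so the counts of members called in that fit rest on that lone mouse and are not given here. Whether glandular stomach in the sample brought Cxcl17 with it was not tested.

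Other genes of the chemokine system also differed between the tissues of vehicle mice. Among all probes, 15.7% were called higher and 11.1% lower in lung than in liver, and 10.6% and 8.9% in lung than in forestomach. The counts of the lists here were made under 1 scaling only. Of 8 further ligands and scavenging or accessory receptors, 6 were higher and none lower in lung than in liver, and 5 were higher and 1 lower in lung than in forestomach. Ppbp, the platelet CXC ligand, was higher in lung by 3.80 (SE 0.32) than in liver, and Ackr2, which clears inflammatory CC chemokines, was higher by 4.72 (SE 0.51) than in forestomach. Ackr1, which binds chemokines on venules and red cells, was the one lower in lung than in forestomach, with a difference of -1.01 (SE 0.21). Of 25 genes that signal below the receptors, 21 were higher and 2 lower in lung than in liver. Of 19 inducers of chemokine genes, 10 were higher and 1 lower, the last being the interferon regulator Irf7 (lung minus liver -2.07, SE 0.27). These examples were chosen after their values were seen.

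Exposure to IP gave no call among the members at any dose in any tissue. In the 9 comparisons of a dose with vehicle (limma, adjusted over 55681 probes), 0 of 54 members passed both thresholds, and the lowest adjusted p of a member was 0.154. Among all probes, 0% were called at 12.5, 0.0126% at 25 and 0.079% at 50 mg/kg-bw/day in lung, and 0% at all doses of both liver and forestomach. A trend over dose was called for 0 members in lung, liver and forestomach, where 0.14%, 0% and 0% of all probes were called, and the lowest adjusted p of a member was 0.477. The median member moved by 0.01 at 50 mg/kg-bw/day in lung, by 0.02 in liver and by -0.02 in forestomach. The medians of all probes, which the normalization sets near 0, were 0.00, -0.01 and 0.00. At 50 mg/kg-bw/day in lung, 9 members lay below the 5th percentile of all probes and 8 above the 95th (-0.19 and 0.22). In liver these counts were 2 and 9 and in forestomach 8 and 4.

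**Figure D3:**
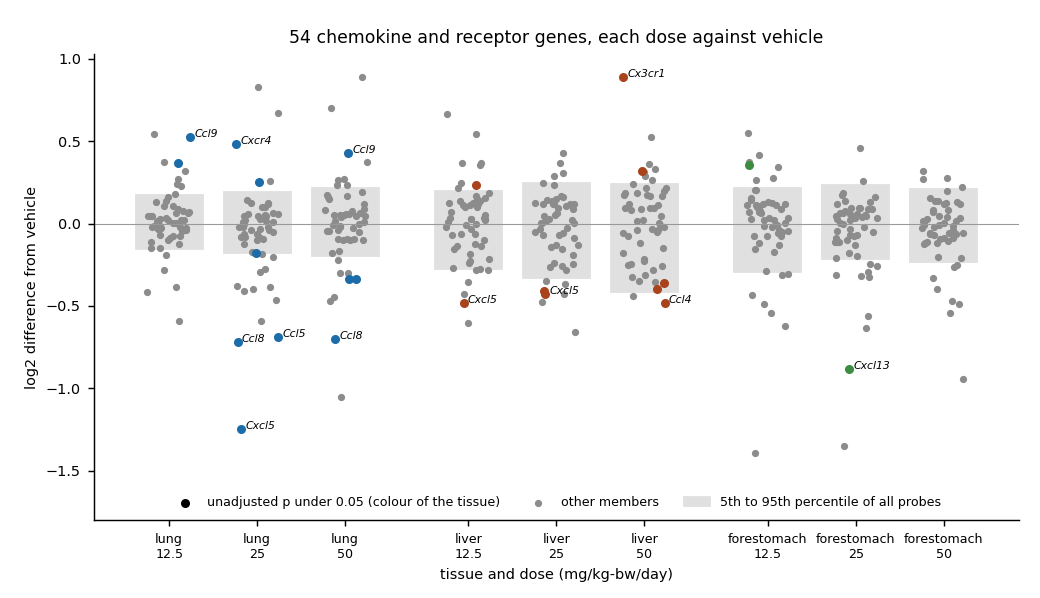
Log2 difference from vehicle of each of the 54 members at each dose (mg/kg-bw/day) in each tissue, 1 point a gene, with coloured points where the unadjusted p was under 0.05. The grey bars span the 5th to 95th percentile of all 55681 probes. Coloured points number between 0 and 6 in a column, and none passed the adjusted threshold.

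At an unadjusted p under 0.05, 2 members stood out in lung at 12.5, 6 at 25 and 4 at 50 mg/kg-bw/day, beside 3.92%, 6.54% and 8.81% of all probes. In liver there were 2, 2 and 5 members at the 3 doses, beside 2.58%, 4.42% and 6.84%, and in forestomach 1, 1 and 0, beside 4.12%, 3.59% and 3.89%. Over the trends there were 5 members in lung, 6 in liver and 0 in forestomach, beside 8.81%, 6.96% and 4.31%. The 6 members in lung at 25 mg/kg-bw/day were Cxcr4 and Cx3cl1 on the higher side and Cxcl9, Ccl5, Ccl8 and Cxcl5 on the lower side, and their lowest adjusted p was 0.311. That was for Cxcr4, which was at 0.97, 0.57, 0.69, 0.78 and 0.92 in vehicle lungs and at 1.04, 1.45, 1.07, 1.41 and 1.38 at 25 mg/kg-bw/day, without overlap (log2 difference 0.48, SE 0.14). At 50 mg/kg-bw/day the Cxcr4 values lay within the vehicle range in 2 of 5 mice (0.81 and 0.90), and the difference was 0.23 (adjusted p = 0.701). Ccl5 was at -1.03, -0.93, -0.91, -0.98 and -1.39 at 25 mg/kg-bw/day, each below 4 of the 5 vehicle lungs, the exception being vehicle mouse 2 at -1.04.

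In lung, Ccl9 gave the lowest adjusted p of all members. It was at 0.07, -0.13, 0.17, 0.13 and 0.14 in vehicle lungs, at 0.21, 0.46, 0.91, 0.57 and 0.86 at 12.5, at 0.20, 0.48, 0.17, 0.11 and 0.05 at 25 and at 0.31, 0.46, 0.70, 0.41 and 0.65 at 50 mg/kg-bw/day. The values at 12.5 and 50 did not overlap with vehicle, while those at 25 did. The difference at 50 mg/kg-bw/day was 0.43 (SE 0.12, 1.35-fold, adjusted p = 0.154) and on the 5 slides it lay between 0.23 and 0.58. With slide as a fixed block the adjusted p was 0.0415, and over all alternatives tried it was between 0.0415 and 0.970, with the fold change in the blocked fit still under 1.5.

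Ccl8, a monocyte attractant, and Cxcl5 had lower means at the 2 higher doses in lung. Ccl8 was at 1.05, 0.83, 1.35, 1.18 and 1.88 in vehicle lungs, at 1.58, -0.26, 0.85, 0.80 and -0.26 at 25 and at 0.88, 0.30, 1.22, 0.25 and 0.15 at 50 mg/kg-bw/day, and the groups overlapped. The difference at 50 was -0.70 (SE 0.31, adjusted p = 0.510), with all 5 slides below 0. Cxcl5 ranged from -3.02 to -0.28 in vehicle lungs, from -3.13 to 0.03 at 12.5, from -3.59 to -1.96 at 25 and from -3.26 to -2.25 at 50 mg/kg-bw/day. The ranges overlapped, and the differences were -1.25 (SE 0.54, adjusted p = 0.702) at 25 and -1.05 (SE 0.54, adjusted p = 0.614) at 50. Values of Cxcl5 above -1.96 occurred in vehicle and 12.5 mg/kg-bw/day mice only. Xcl1, the lymphotactin of NK and CD8 T cells, differed by -0.34 at 50 (SE 0.14, adjusted p = 0.464), from 1.11, 0.82, 0.24, 0.47 and 0.68 in vehicle lungs to 0.46, 0.37, 0.21, 0.46 and 0.15, near the detection level.

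The receptors Cxcr5 and Ccr7 had the largest positive differences in lung at 50 mg/kg-bw/day, and neither passed the test. Cxcr5 was at 2.99, 1.47, 1.17, 2.03 and 2.50 in vehicle lungs and at 3.19, 2.17, 2.49, 3.49 and 3.28 at 50, a difference of 0.89 (SE 0.47, adjusted p = 0.626). Ccr7 was at 3.44, 2.10, 2.80, 2.82 and 3.53 in vehicle lungs and at 3.72, 3.52, 3.61, 3.91 and 3.44 at 50, a difference of 0.70 (SE 0.35, adjusted p = 0.593). For both genes the groups overlapped in range and all 5 slides gave a positive difference. The lowest Cxcr5 and Ccr7 values of all, 0.47 and 1.79, were in mouse 8 at 12.5 mg/kg-bw/day, whose array was 1 of the 4 of raised Cy5 signal. At 50 mg/kg-bw/day, 4 of the 8 B cell markers were also higher at an unadjusted p under 0.05, with a median difference of 0.67 and none called. Fat cell markers differed by a median of -1.31 at that dose, with 1 of 6 called lower, and heart muscle markers by -1.36, with none called. The part of these cells in the chemokine values was not tested.

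**Figure D4:**
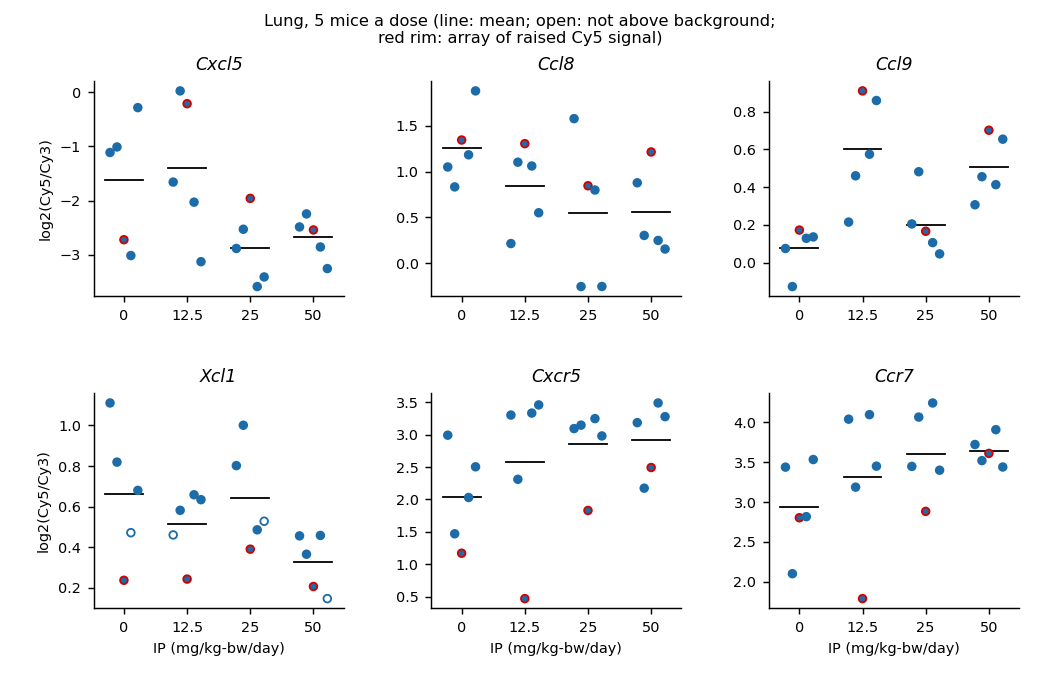
Log2(Cy5/Cy3) in lung of the 3 members at each end with the largest differences at 50 mg/kg-bw/day among those with all exposed mice on 1 side of the vehicle mean, against the IP dose, 1 point a mouse (open: not above background; red rim: array of raised Cy5 signal) and a line at the mean of 5 mice. Vehicle and 50 mg/kg-bw/day do not overlap for Ccl9 and overlap for the other 5 genes.

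Across all 20 lungs, receptors of lymphocytes followed the B cell markers from mouse to mouse. Of 172 relations between 43 members and 4 marker lists, 18 had an adjusted p under 0.05 for both Pearson's r and Spearman's rho (permutation tests, 100000 draws, adjusted over the 172). Ccr7 gave r = 0.95 and rho = 0.88 with the mean of the 8 B cell markers (adjusted permutation p = 0.000344 and 0.00086). The relation was 0.89 without the 2 mice farthest from the median, 0.95 within dose groups and 0.93 without the 4 arrays of raised Cy5 signal. Cxcr5 gave r = 0.92 and rho = 0.91 (adjusted permutation p = 0.000344 and 0.00086) and stayed at 0.88, 0.91 and 0.93 in the same 3 checks. For Cxcr4 they were r = 0.81 and rho = 0.72 (adjusted permutation p = 0.000344 and 0.00989), with 0.67, 0.89 and 0.75 in the checks. Ccr6 was weaker, with r = 0.71 and rho = 0.65 (adjusted permutation p = 0.0148 and 0.0424), and fell to 0.51 without the raised arrays. Ccl2 and Ccl24 ran the other way, at r = -0.61 and -0.65.

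Cxcr2 followed the neutrophil markers, with r = 0.88 and rho = 0.79 (adjusted permutation p = 0.000344 and 0.00301). It was 0.83 without the 2 farthest mice, 0.89 within dose groups and 0.81 without the raised arrays. In all, 7 members rose with the neutrophil markers and 2 ran against them, but several of these relations rested on the raised arrays, and that of Ccr6 went from 0.73 to 0.43 without them. With T cell markers 3 members were related, among them Ccr7 (r = 0.83) and Cxcr5 (r = 0.71), and with the 7 macrophage and monocyte markers measured 0. The smallest p that these permutations can give was 1e-05. The points of each relation share the arrayon which both measures were read.

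**Figure D5:**
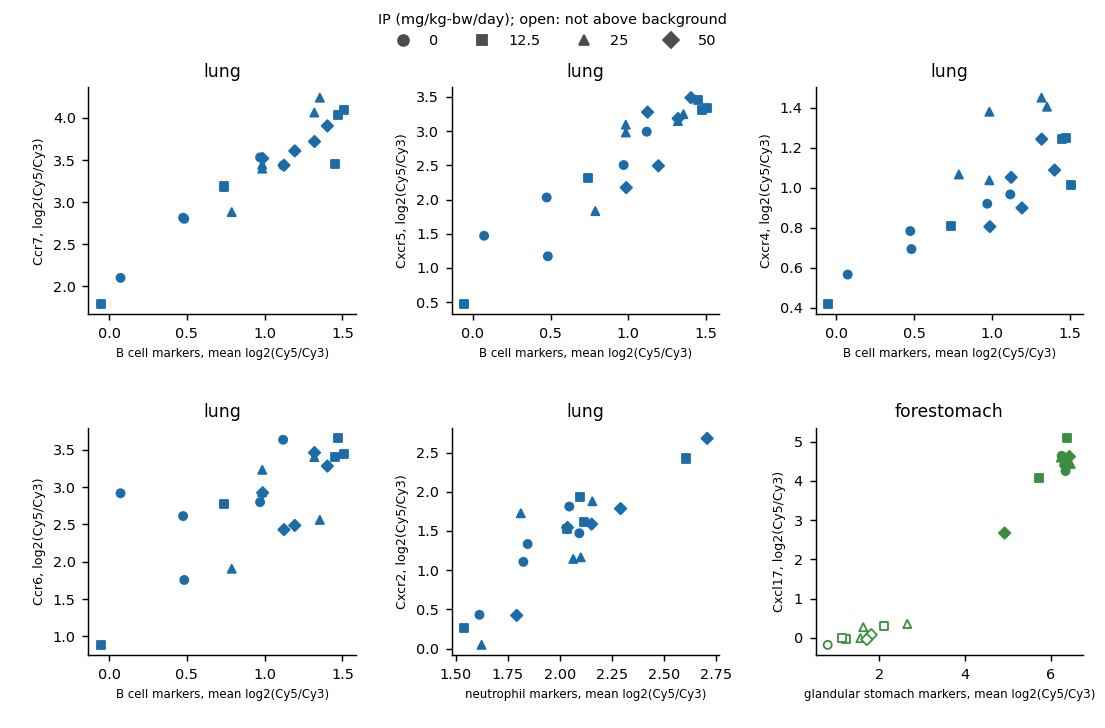
Log2(Cy5/Cy3) of 5 receptors in 20 lungs and of Cxcl17 in 19 forestomachs against the mean log2(Cy5/Cy3) of a marker list, with the IP dose shown by the symbol. Ccr7 and Cxcr5 rise with the B cell markers across the 20 lungs, with scatter among mice of a dose. Forestomach Cxcl17 falls into 10 mice at 2.67 or higher and 9 mice near 0.

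In liver 6 members had the largest differences at 50 mg/kg-bw/day among those with every exposed mouse on 1 side of the vehicle mean, and none passed the test. Ccr3 was at 0.15, 1.02, 0.56 and 0.62 in vehicle livers and at 0.86, 2.07, 0.99, 0.93 and 0.71 at 50, a difference of 0.53 (SE 0.26, adjusted p = 0.725). Mouse 17 was high and the groups overlapped. Ccr8 was at -0.33, -0.52, -0.41 and -0.54 in vehicle livers and at -1.62, -0.58, -0.63, -0.47 and -1.15 at 50, a difference of -0.44 (SE 0.24, adjusted p = 0.741). The lowest of these, mice 16 and 20, were the 2 arrays of raised Cy5 signal in that group, and without the raised arrays the difference was -0.11. Ccl5, Ccl25, Ccl9 and Ccl24 differed by 0.29, 0.26, -0.35 and -0.18. With the arrays only centred on the median, the signs of Ccr8, Ccl9 and Ccl24 turned, to 0.26, 0.21 and 0.41.

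Cx3cr1 in liver fell outside the rule by which genes were named and is given because its difference was the largest of any member there. It was at 0.57, 0.48, 0.72 and 0.45 in vehicle livers and at 0.55, 2.14, 1.48, 1.85 and 1.2 at 50 mg/kg-bw/day, so that 4 of 5 mice lay above all vehicle mice. The difference was 0.89 (SE 0.36, unadjusted p = 0.0229, adjusted p = 0.721). A second Cx3cr1 probe gave a smaller difference of 0.24 (limma, unadjusted p = 0.0695). Ccl3, an inflammatory ligand of myeloid cells, was at -2.06, -2.50, -2.18 and -2.39 in vehicle livers and at -2.72, -2.60, -2.26, -2.51 and -3.33 at 50 mg/kg-bw/day (difference -0.40, SE 0.16, adjusted p = 0.721). The groups overlapped, and the lowest values were again mice 16 and 20, of raised Cy5 signal. In forestomach no member met the rule at 50 mg/kg-bw/day. The largest difference at an unadjusted p under 0.05 there was that of the B cell attractant Cxcl13 at 25 mg/kg-bw/day, at 1.18 ± 1.06 in 4 vehicle mice and 0.31 ± 0.18 in 5 exposed mice, none of which was above background. Cxcl17 gave the most negative differences in forestomach at every dose (-1.39, -1.35 and -0.94 from the lowest to the highest, each with SE 1.43), with high and low mice in each group as given above.

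The effect of 50 mg/kg-bw/day was not shown to differ between tissues for any member. In the tests of that difference, 0 of 54 members passed for lung against liver, lung against forestomach or forestomach against liver, where 0.0162%, 0.0144% and 0.00359% of all probes did, and the lowest adjusted p was 0.582. The unadjusted p was under 0.05 for 4, 3 and 2 members, beside 7.07%, 2.92% and 6.15% of all probes. They included Ccl9, whose difference at 50 mg/kg-bw/day was 0.43 in lung and -0.35 in liver. The other lists of the system gave no call at any dose either. In lung at 50 mg/kg-bw/day, Ackr3, the scavenger of Cxcl12, differed by 0.79 (SE 0.21, adjusted p = 0.123), the inflammatory cytokine Il1b by 0.74 (SE 0.22, adjusted p = 0.200) and the NF-kB inhibitor Nfkbia by -0.39 (SE 0.11, adjusted p = 0.186), examples chosen after their values were seen.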

How the data were processed

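Per the file headers, the deposited files are scanner output of Agilent Feature Extraction (version 10.7.3.1 for lung and forestomach, 11.0.1.1 for liver) from 2-colour arrays, with Cy5 (sample) and Cy3 (reference) median intensity per spot and a log10 ratio of the software, which served as an alternative. The authors' normalized log2 values matched the lung and forestomach arrays (r = 0.996 or higher) but not the liver arrays, for which they were not used. Per the labels, the dyes were not swapped.

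Here log2(Cy5/Cy3) of the median intensities was normalized by loess within each array (limma 3.58.1, R 4.3.3), without background subtraction. Control and outlier spots were left out (59305 of 62976 spots were not controls) and spots of a probe were averaged, giving 55681 probes. Probes were named through RefSeq accessions (26413 probes, 20018 genes), and the brightest probe stood for each gene; 8 members had several probes. Ccl21c, Ccl21d, Ccl27b and Cxcl11 were not matched. Of the members, 1 is counted but named in no text or figure here.

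For each tissue a limma model compared each dose with vehicle and fitted the slope over dose; a model of all 12 groups compared tissues in vehicle mice and the effect of 50 mg/kg-bw/day between tissues. It stands in for the MAANOVA Fs test of the study's methods. P-values were adjusted by Benjamini-Hochberg over all probes, and a call also needed a fold change of 1.5 (differences only). The number of arrays limits the precision. The labels list 5 vehicle lungs where the protocol gives 4 mice. Per the labels, mouse numbers are shared between tissues and were taken to mark the same animal. Residuals of the same mouse correlated at a median of 0.04 between lung and liver, 0.15 between lung and forestomach and 0.02 between forestomach and liver. For other mice of the dose the medians were -0.02, -0.04 and -0.01. Lung and forestomach of nearly every mouse lay on the same slide, so that correlation cannot tell mouse from slide. The fits were tested on simulated data.

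Named in full were the 3 genes most higher and most lower in each tissue pair, and the 3 at each end at 50 mg/kg-bw/day with all exposed mice on 1 side of the vehicle mean. The members and lists were chosen with earlier results of these data known. Alternatives covered the normalization, background, dim probes, the probe of a gene, blocks by slide and mouse, and leaving out mice; those without raised Cy5 arrays and without forestomachs of a glandular marker mean over 4 were added after seeing the data.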

Additional observations from a re-analysis of the deposited data

Results flagged for a closer look

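Of 49 groups of 4 or 5 mice examined for the named genes, 2 held a mouse far from the rest by Dixon's test, which flags about 1 in 20 groups by chance. In liver at 50 mg/kg-bw/day, Ccr3 was at 2.07 in mouse 17, whereas the other 4 mice lay between 0.71 and 0.99. In the same group Ccl25 was at 0.66 in mouse 20, an array of raised Cy5 signal, whereas the others lay between 0.28 and 0.37.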

How the results depend on the processing

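The numbers of members called between tissues in vehicle mice ranged over the alternatives from 30 to 37 for lung against liver, from 19 to 26 for lung against forestomach and from 17 to 26 for forestomach against liver. When each mouse was left out in turn they ranged from 34 to 37, 21 to 25 and 21 to 25. With mouse as a random replicate block they stayed at 36, 23 and 22, and the effects between tissues at 0. Under every alternative at the adjusted threshold, 0 members were called for a dose, a trend or an effect between tissues. At the less strict threshold (unadjusted p under 0.05, 1.2-fold) lung gave 2, 4 and 4 members from the lowest to the highest dose, liver gave 1, 2 and 5, and forestomach gave 1, 1 and 0. The share of all probes at this threshold was not taken. Without the fold limit it was 3.92%, 6.54% and 8.81% in lung and 2.58%, 4.42% and 6.84% in liver. In forestomach it was 4.12%, 3.59% and 3.89%.

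With the arrays only centred on the median, the differences at 50 mg/kg-bw/day in liver turned to 0.41 for Ccl24, 0.21 for Ccl9 and 0.26 for Ccr8, and that of Ccl24 was between -0.31 and 0.00199 when 1 mouse was left out, turning sign without liver vehicle mouse 2. Between vehicle tissues, Ccl21a in forestomach over liver was 0.57 (adjusted p = 0.532) with the scanner software's log ratio, and Cxcl1 in lung over liver was -0.93 (adjusted p = 0.102) with median centring. The cause was not tested. Of the members called between lung and liver, 26 of 36 kept their call and direction with median centring and 5 turned sign (Ccl3, Ccl25, Ccl27a, Ccr8 and Cxcl10). Signal over background sets the limit for the members that were dim in liver and forestomach.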
